A study of Mus musculus with 8 samples.

Results

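Interferon-stimulated genes are the genes that a cell switches on when interferon binds its surface receptors. The 41 genes described here were taken by gene symbol from the deposited liver table, and all 41 were among its 17810 genes and among the 12395 that passed the filter on low counts and were tested. They comprise 4 transcription factors, 7 sensors of foreign nucleic acid, 10 antiviral effectors, 4 genes of ISG15, ubiquitin and ADP-ribose conjugation, 10 interferon-inducible GTPases and 6 genes of antigen processing.

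RNA-Seq was performed on whole livers of 4 WT and 4 HKO male littermate mice. HKO mice lacked miR-33 in hepatocytes: they carried the conditional miR-33 loxP/loxP alleles together with Cre recombinase driven by the albumin promoter, a promoter used to direct deletion to hepatocytes. Deletion in other liver cells was not measured here. The sources used here do not state whether the WT littermates carried the loxP alleles. All 8 mice were 5 months old and had received CD-HFD, a high-fat diet without added choline, for 3 months, a model of diet-induced steatosis. There was no chow-fed or interferon-treated group among these livers, so the comparison of HKO with WT asks how these genes differed between genotypes on the diet, and each replicate is 1 mouse.

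Type I interferons bind the receptor IFNAR, and interferon gamma binds IFNGR. Janus kinases on these receptors phosphorylate STAT proteins. A complex that holds STAT2 and IRF9 binds interferon-stimulated response elements in DNA, while STAT pairs bind gamma-activated sites. In the liver these genes are expressed by hepatocytes and by resident immune and endothelial cells, and they limit the growth of viruses and intracellular microbes.

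The library totals ran from 12174339 to 18735785 estimated counts, and 3 counts, taken as the floor, corresponded to 0.149 to 0.255 CPM (counts relative to the library total, on sizes scaled by TMM) for counting error only. No value for the miRNA itself is given here. Its host gene Srebf2, in whose intron it lies, was measured at 12.6 to 20.9 CPM in WT and 10.6 to 14.4 CPM in HKO livers (log2 fold change -0.37 ± 0.17 SE, edgeR adjusted p = 0.243), which does not check the deletion. The hepatocyte markers summed to 79745 to 113626 CPM in WT and 68835 to 124338 CPM in HKO livers, so the labelled tissue bore its defining markers. The HKO replicate 2 library stood apart by its cholangiocyte markers, which summed to 44.6 CPM there and to 6.17 to 16.4 CPM in the other 7 livers.

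The short words that interferon-activated factors bind were looked up first, because they are the feature by which these genes are thought to be switched on together. RefSeq promoter windows (GRCm38.p6, 250 bases before to 50 after the start) were held for 31 of the 41 genes. The word GAAANNGAA, the core of the interferon-stimulated response element, was searched on both strands and occurred in 18 of the 31 (58.1%), against 8.81% of the 9921 tested genes with a window and 9.76% of all 27025 genes with one. The word TTCNNNGAA, the gamma-activated site, reads the same on both strands and occurred in 11 of the 31 (35.5%), against 8.40% of the tested genes and 9.55% of all genes with a window. Both words were present in 7 of the genes, against 1.14% of the tested genes, and 1 word can overlap the next.

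Stretches around the matches are shown for 8 genes of different roles, to show how the words lie. Each is printed 5′ to 3′ in the direction of transcription, and capitals mark the matched words. Isg15 held 3 overlapping copies of the response element in a row (chr4:156200864-156200908, minus strand), and Irgm1 held 2 (chr11:48871424-48871462, minus strand). In Ifit1 (chr19:34640768-34640825, plus strand) and Rsad2 (chr12:26456551-26456583, minus strand) the word lay on the opposite strand.
Isg15: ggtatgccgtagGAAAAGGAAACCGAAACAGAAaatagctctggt
Irgm1: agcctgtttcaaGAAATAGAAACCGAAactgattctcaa
Ifit1: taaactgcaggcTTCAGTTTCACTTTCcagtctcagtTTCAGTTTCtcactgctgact
Rsad2: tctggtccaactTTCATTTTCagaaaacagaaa

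The GTPases Irgm2 (chr11:58214890-58214933, plus strand), Igtp (chr11:58199499-58199542, plus strand) and Tgtp1 (chr11:48992303-48992346, minus strand) each had a gamma-activated site followed by a response element, with 2 bases between them. Psmb8 (chr17:34198086-34198118, plus strand), a gene called between the genotypes below, had the gamma-activated site alone.
Irgm2: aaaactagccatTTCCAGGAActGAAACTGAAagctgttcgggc
Igtp: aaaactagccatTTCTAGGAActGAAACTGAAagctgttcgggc
Tgtp1: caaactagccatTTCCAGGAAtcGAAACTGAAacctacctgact
Psmb8: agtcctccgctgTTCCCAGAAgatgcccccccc

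Few of the genes held a match to the seed of the deleted miRNA. The mature miR-33-5p (RefSeq, GRCm38.p6, chr15:82198127-82198147, plus strand) is shown with its seed, bases 2 to 8, in capitals. Either of 2 words of 7 bases was counted as a match: CAATGCA, the complement of bases 2 to 8, or AATGCAA, which pairs with bases 2 to 7 and has an A opposite base 1. One or the other occurred in the longest annotated 3′UTR of 3 of the 41 genes (7.32%), against 2037 of the 11554 tested genes with such a 3′UTR (17.6%). The shares were not adjusted for 3′UTR length, which ran from 55 bases in Psmb10 to 3919 in Gbp6 among the 41. The 3 genes with a match were Ifih1, Gbp6 with 1 match and Gbp7 with 1. In Ifih1 both words were counted, but they overlap and start 1 base apart, so they mark 1 site. The first match in each gene, of the second form in Gbp6 and Gbp7, is shown in capitals.
miR-33-5p: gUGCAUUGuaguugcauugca
Ifih1: tcattgtgCAATGCAatgtggca
Gbp6: aaacccagAATGCAAgcatccaa
Gbp7: tatgtttaAATGCAAatactgtt

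The interferon-stimulated genes, taken as a group, were called between HKO and WT livers at a share close to that of all genes. Gbp6, a GTPase of the guanylate-binding family, was lower in HKO livers, and Psmb8, a catalytic subunit of the immunoproteasome, was higher. These 2 of 41 genes (4.88%) were called at an adjusted p under 0.05 by the quasi-likelihood test of edgeR, adjusted over all genes tested after Benjamini and Hochberg, where 5.03% of all genes were called. By direction, 1 of 41 was lower against 3.37% of all genes, and 1 of 41 was higher against 1.66%. DESeq2 called 3 of 41, Gbp6, Psmb8 and Rsad2, against 8.18% of all genes. In simulated data, the share of calls made in unchanged genes was larger with DESeq2 (11.3%) than with edgeR (5.11%).

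Of the 41 genes, 21 had a fold change above 0 and 20 below it. Their median log2 fold change (HKO over WT) was 0.01, and that of all genes tested was also 0.01. At an unadjusted p under 0.05, 9 of 41 passed, against 19.8% of all genes. The CPM values of the genotypes did not overlap in 4 of 41, against 12.5% of all genes: Psmb8, Irgm1 and Ifi27 were higher in every HKO liver and Gbp6 was lower. The estimates ranged from -0.86 for Rsad2 to 0.51 for Psmb8, and 39 of 41 were under 1.5-fold in either direction. The 95% interval of the fold change lay wholly within 1.5-fold either way for 26 genes and within 2-fold for 38, which is the resolution that 4 livers a genotype gave.

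**Figure D1:**
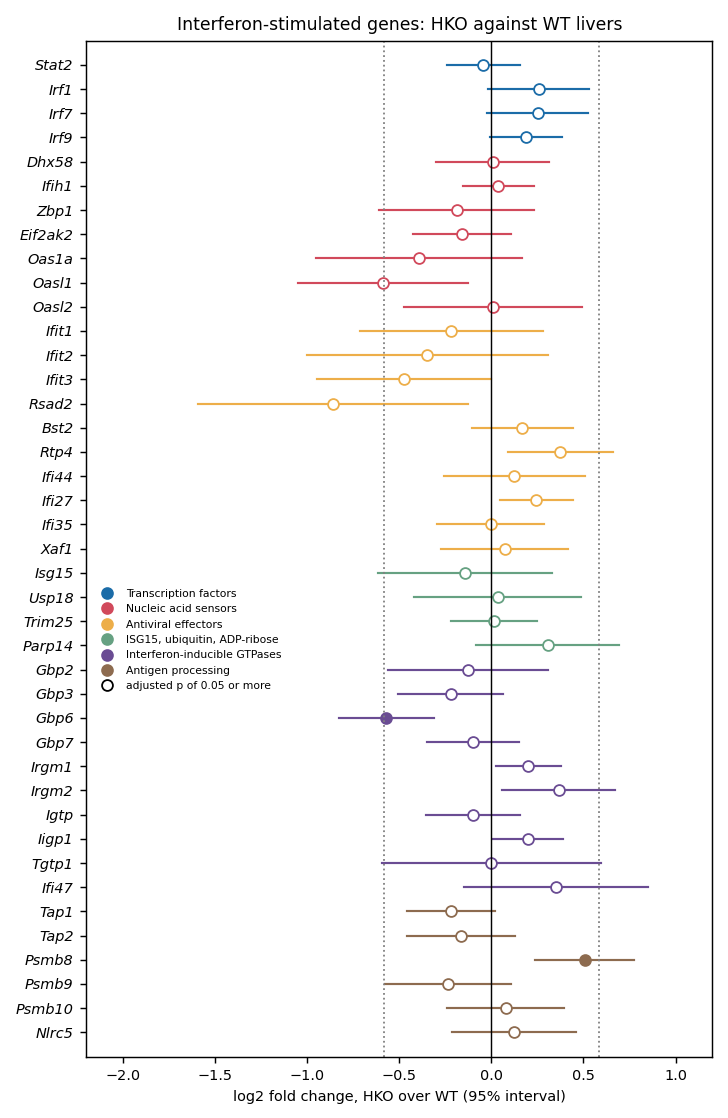
The log2 fold change of each of the 41 interferon-stimulated genes, HKO over WT (x axis), with its 95% interval from edgeR, ordered and coloured by role. Filled points mark an adjusted p under 0.05 (Gbp6 and Psmb8), the dotted lines mark 1.5-fold either way, and points lie on both sides of 0 in every role.

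The 4 transcription factors carry the interferon signal to DNA, and none of them was called. Stat2, which is activated by type I interferon, was measured at 40.9, 40.2, 42.5 and 38.3 CPM in the WT livers and at 43.5, 37.8, 41.6 and 34.1 CPM in the HKO livers. The genotypes overlapped throughout (log2 fold change -0.04 ± 0.09 SE, edgeR adjusted p = 0.849), and the 95% interval of the fold ran from 0.846 to 1.11. Stat2 shares coordinates with Apof on the same strand in the table, and its estimated counts were fractional in all 8 livers.

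Irf9, the DNA-binding partner of STAT2, was measured at 24.6, 25.4, 30.7 and 27.3 CPM in WT and at 31.4, 31.7, 30.1 and 30.0 CPM in HKO livers. The WT livers other than replicate 3 lay below all HKO livers, and the difference did not pass (0.19 ± 0.09 SE, edgeR adjusted p = 0.279). Irf7, which amplifies the type I interferon response, was measured at 12.7, 11.7, 14.4 and 10.3 CPM in WT and at 15.7, 12.9, 15.7 and 14.1 CPM in HKO livers. WT replicate 4 was lowest and HKO replicates 1 and 3 were highest, with overlap between the genotypes (0.25 ± 0.13 SE, edgeR adjusted p = 0.304).

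Irf1, a factor induced mainly by interferon gamma that drives antigen presentation genes, was measured at 20.6, 23.0, 19.5 and 20.4 CPM in WT and at 21.1, 25.0, 22.3 and 31.3 CPM in HKO livers. HKO replicate 4 alone stood above 26 CPM, and the genotypes overlapped (0.26 ± 0.12 SE, edgeR adjusted p = 0.290). Of the 4 factors, 3 had an estimate above 0 and the median log2 fold change was 0.22, with no call.

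The 7 sensors recognise viral or misplaced nucleic acid. None was called, 3 estimates were above 0 and 4 below, and the median log2 fold change was -0.16. Oasl1, of the oligoadenylate synthetase-like family, was measured at 10.6, 7.82, 12.5 and 8.74 CPM in WT and at 8.97, 7.03, 5.69 and 4.68 CPM in HKO livers. HKO replicates 2, 3 and 4 lay below all WT livers and HKO replicate 1 lay among them (-0.59 ± 0.21 SE, edgeR adjusted p = 0.143).

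Oas1a, an oligoadenylate synthetase that activates RNase L, was low throughout, at 2.31, 2.44, 3.68 and 1.91 CPM in WT and 1.62, 2.24, 1.92 and 2.21 CPM in HKO livers. WT replicate 3 held the highest value and the other 7 livers were interleaved (-0.39 ± 0.25 SE, edgeR adjusted p = 0.439). Oas1a shares 60.4% of its 45-base words with Oas1g, and with both summed the difference was -0.19 (edgeR adjusted p = 0.700). The other sensors had estimates from -0.19 to 0.04. Among them were Ifih1, the cytosolic sensor of long double-stranded RNA, at 65.1 to 74.5 CPM in WT and 61.9 to 77.3 CPM in HKO livers (0.04), and Eif2ak2, the kinase PKR, at 32.3 to 38.6 and 27.5 to 39.9 CPM (-0.16). Dhx58 (0.01), Zbp1 (-0.19) and Oasl2 (0.01) were at 3.32 to 8.10 CPM in all 8 livers, and their genotypes overlapped.

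The 10 antiviral effectors held the largest decrease in estimate and no call. Rsad2, which encodes viperin, an enzyme that makes a chain-terminating nucleotide, was measured at 23.0, 15.3, 43.1 and 18.5 CPM in the WT livers and at 14.7, 11.6, 16.0 and 12.8 CPM in the HKO livers. WT replicate 3 held more Rsad2 than any other liver, and HKO replicate 3 overlapped WT replicate 2. The estimate was -0.86 ± 0.32 SE with an edgeR adjusted p of 0.186, and DESeq2 called it (adjusted p = 0.0274). Without WT replicate 3 the estimate was -0.46 (edgeR adjusted p = 0.137).

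The Ifit genes lie next to one another on chromosome 19 and encode proteins that bind foreign RNA ends. Ifit1 was measured at 22.2, 15.6, 36.4 and 20.5 CPM in WT and at 20.7, 19.2, 21.6 and 20.01 CPM in HKO livers. All HKO livers lay within the WT range (-0.22 ± 0.22 SE, edgeR adjusted p = 0.655), and without WT replicate 3 the estimate was 0.07. Ifit3 was measured at 36.3, 22.6, 42.7 and 21.9 CPM in WT and at 20.4, 24.9, 21.9 and 21.7 CPM in HKO livers.

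WT replicates 1 and 3 were high in Ifit3, and WT replicates 2 and 4 lay among the HKO livers (-0.47 ± 0.21 SE, edgeR adjusted p = 0.253, and -0.27 without WT replicate 3). Ifit3 shares 53.5% of its 45-base words with Ifit3b, and the sum of both differed by -0.45 (edgeR adjusted p = 0.311). Ifit2 was measured at 5.78 to 15.2 CPM in WT and 6.02 to 11.5 CPM in HKO livers (-0.35).

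Rtp4, a chaperone-like protein that restricts viral replication, went the other way. It was measured at 19.1, 22.5, 27.2 and 24.2 CPM in WT and at 36.4, 26.3, 27.2 and 30.6 CPM in HKO livers. HKO replicate 1 was highest and HKO replicate 2 lay below WT replicate 3 (0.37 ± 0.13 SE, edgeR adjusted p = 0.133). Ifi27, a mitochondrial protein, was measured at 36.2 to 41.7 CPM in WT and 41.8 to 53.1 CPM in HKO livers (0.24, edgeR adjusted p = 0.158), where the lowest HKO liver was barely above the highest WT liver. It shares coordinates with Ifi27l2a on the opposite strand, and whether counting used strand was not given. Bst2, the tether that holds budding virus at the cell surface, was at 24.6 to 30.0 CPM in WT and 25.1 to 37.4 CPM in HKO livers (0.17). Ifi44 (0.13), Xaf1 (0.07) and Ifi35 (0.00) lay between 6.48 and 11.99 CPM in all 8 livers.

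**Figure D2:**
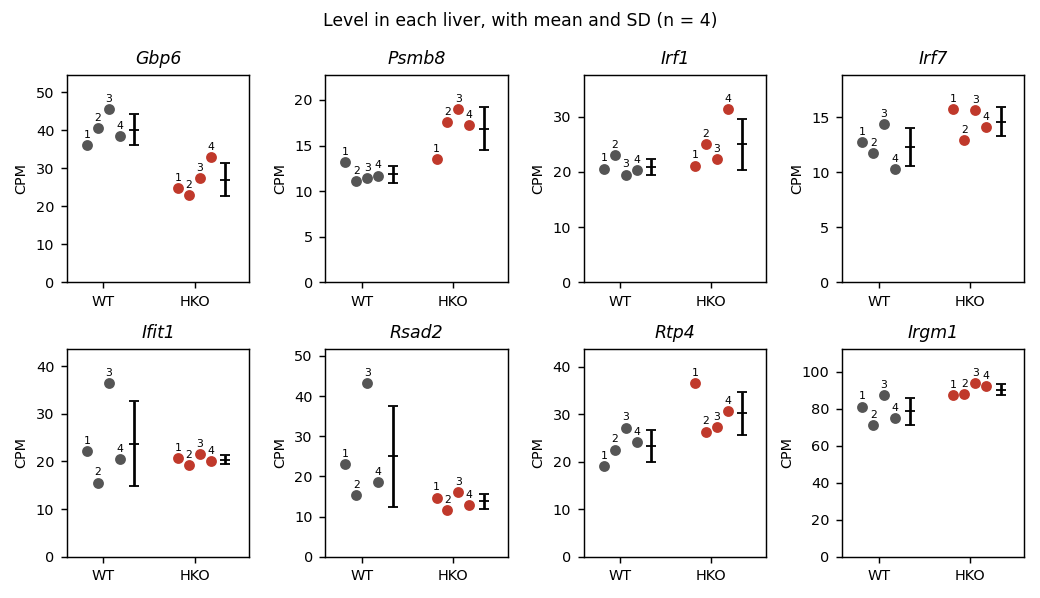
CPM (y axis, from 0) of 8 of the interferon-stimulated genes in each WT (grey) and HKO (red) liver, with the replicate number above each point and the mean ± SD of 4 livers beside them. Gbp6, Psmb8 and Irgm1 separate by genotype, and WT replicate 3 stands above the other livers in Ifit1 and Rsad2.

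The ISG15 group attaches small modifiers to proteins or removes them. Isg15, the ubiquitin-like modifier, was low, at 3.14, 2.58, 2.83 and 3.29 CPM in WT and 2.23, 2.86, 3.44 and 2.13 CPM in HKO livers. HKO replicate 3 was highest and HKO replicate 4 was lowest, so the HKO livers spanned the WT range (-0.14 ± 0.22 SE, edgeR adjusted p = 0.782). The 95% interval of its fold ran from 0.653 to 1.26, with as few as 25 counts in the lowest liver.

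Usp18, which removes ISG15 and restrains the type I receptor, was measured at 7.03 to 14.2 CPM in WT and 9.26 to 13.0 CPM in HKO livers (0.03). Trim25, a ubiquitin ligase of RNA sensing, was more abundant, at 117 to 155.1 CPM in WT and 115 to 148 CPM in HKO livers (0.01). Parp14, an ADP-ribosyltransferase, was measured at 47.0, 45.4, 74.0 and 40.3 CPM in WT and at 71.1, 61.5, 64.5 and 58.5 CPM in HKO livers. The WT livers other than replicate 3 lay below all HKO livers. Over all livers the difference was 0.31 ± 0.17 SE (edgeR adjusted p = 0.376). It was called in 1 of the 8 fits without a liver, the one without WT replicate 3 (0.53 ± 0.09 SE, edgeR adjusted p = 0.0144). That liver held the highest Parp14 value, so leaving it out raises the estimate by construction, and the call is not taken as a result.

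The GTPases attack the membranes around intracellular microbes, and 6 of the 10 had an estimate below 0. Gbp6 was measured at 36.1, 40.5, 45.6 and 38.4 CPM in the WT livers and at 24.9, 23.0, 27.4 and 32.9 CPM in the HKO livers. All 4 HKO livers lay below all 4 WT livers, with HKO replicate 4 nearest to them. Gbp6 fell by 0.57 ± 0.12 SE on the log2 scale (edgeR adjusted p = 0.0201), and the 95% interval of the fold ran from 0.563 to 0.806.

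Gbp6 shares 71.4% of its 45-base words with other genes, and its counts were fractional in all 8 livers. The largest share, 65.7%, is with Gm43302, which was not among the genes quantified. Its neighbour Gbp10 also shares words with it and was the only gene summed with it, so the sum does not settle the sharing. Gbp10 was measured separately at -0.23 (edgeR adjusted p = 0.605). The sum of both was 56.8, 68.5, 80.6 and 62.04 CPM in WT and 40.3, 45.3, 55.3 and 58.99 CPM in HKO livers. In the sum, HKO replicate 4 overlapped WT replicate 1, and the difference of -0.42 ± 0.14 SE did not pass (edgeR adjusted p = 0.113). The call for Gbp6 was thus made with both genes counted apart. It also missed the threshold without WT replicate 2 (-0.56, edgeR adjusted p = 0.0750). Gbp2, Gbp3 and Gbp7, which lie together on chromosome 3, had estimates from -0.22 to -0.10 with overlap between the genotypes.

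Irgm1, which controls the other immunity-related GTPases, was measured at 81.2, 71.0, 87.3 and 74.9 CPM in WT and at 87.5, 88.0, 93.6 and 92.0 CPM in HKO livers. The genotypes did not overlap, by a margin of WT replicate 3 at 87.3 and HKO replicate 1 at 87.5 CPM, and the difference was not called (0.20 ± 0.08 SE, edgeR adjusted p = 0.194). Irgm2 was at 62.8 to 89.0 CPM in WT and 74.8 to 114 CPM in HKO livers (0.36, edgeR adjusted p = 0.175). Iigp1, singled out here for its level, was measured at 742, 730, 757 and 776 CPM in WT and at 885, 870, 937 and 755 CPM in HKO livers. Of the HKO livers, replicate 4 lay within the WT range and the other 3 lay above it (0.20 ± 0.09 SE, edgeR adjusted p = 0.235).

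Igtp (-0.10), Tgtp1 (0.00) and Ifi47 (0.35) overlapped between genotypes, and the 33.02 CPM of Ifi47 in HKO replicate 3 lay above the 14.7 to 20.3 CPM of the other 7 livers. Tgtp1 shares 82.0% of its words with other genes, mainly Tgtp2, and the sum of Tgtp1 and Tgtp2 differed by 0.17 (edgeR adjusted p = 0.850). Of the 41 genes, 17 had fractional counts in at least 1 liver and 7 in all 8, where the authors' quantification divided reads between genes.

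The 6 genes of antigen processing are those that cut or carry peptides for display to T cells, and Nlrc5, which activates the class I genes. Psmb8 was measured at 13.2, 11.1, 11.4 and 11.7 CPM in the WT livers and at 13.5, 17.6, 18.99 and 17.3 CPM in the HKO livers. HKO replicate 1 lay just above the highest WT liver and the other HKO livers were clearly higher. Psmb8 rose by 0.51 ± 0.12 SE on the log2 scale (edgeR adjusted p = 0.0375, 95% interval of the fold 1.18 to 1.71). The call was near the threshold: it held in 1 of the 8 fits that left out a liver, the one without HKO replicate 1, while the estimate stayed between 0.44 and 0.60.

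Psmb9, Tap1, Psmb8 and Tap2 lie side by side on chromosome 17 between 34182099 and 34216322 (GRCm38). The neighbours of Psmb8 had estimates of the other sign, none of them called: Psmb9, another immunoproteasome subunit, was at 4.82 to 5.85 CPM in WT and 4.05 to 5.47 CPM in HKO livers (-0.24 ± 0.16 SE, edgeR adjusted p = 0.450). Tap1 (-0.22) and Tap2 (-0.16), which together form the peptide transporter, also overlapped between genotypes. Psmb10, the remaining immunoproteasome subunit, had an estimate of 0.08, and Nlrc5, the activator of the class I genes, had 0.12.

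Per kilobase of exon, the order of levels was led by Iigp1, at 125 to 161 CPM per kb over the 8 livers, above Bst2 at 27.3 to 41.4 CPM per kb. At the low end were Oas1a at 0.859 to 1.95 and Oasl2 at 0.598 to 1.27 CPM per kb. Between neighbours in that order, the ranges over the 8 livers overlapped in 38 of 40 pairs. The pairs that did not overlap were Iigp1 with Bst2, and Trim25 (20.03 to 27.0) with Igtp (13.1 to 18.2 CPM per kb).

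The genes varied between livers within a genotype. WT replicate 3 held the highest WT value for 26 of the 41 genes (63.4%), where it was highest for 28.1% of all genes tested, and it was highest of all 8 livers for 13. WT replicate 4 held the lowest WT value for 21 of the 41 (27.2% of all genes tested). Relative to the WT mean, the median log2 ratio over the 41 genes was 0.18 in WT replicate 3 and -0.16 in WT replicate 4, and it lay between -0.08 and 0.03 in the 4 HKO livers.

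WT replicate 3 led the WT livers in 3 of 4 transcription factors, 6 of 7 sensors, 6 of 10 effectors, 2 of 4 genes of the ISG15 group and 7 of 10 GTPases. In antigen processing it led in 2 of 6 genes, and its median log2 ratio to the WT mean there was -0.01, below those of WT replicates 1 and 2. Without that liver, 24 of the 41 estimates were above 0 and 17 below. Their median log2 fold change was 0.07, against 0.01 for all genes tested. The liver was picked for its high values in these genes, so an upward shift follows from leaving it out. In that fit Gbp6 was still called (-0.50, edgeR adjusted p = 0.0470) and Psmb8 was not (0.49, edgeR adjusted p = 0.0742). The genotypes then did not overlap in 9 of the 41 genes, against 19.3% of all genes tested. Without HKO replicate 2, the library with high cholangiocyte markers, Gbp6 was called, Psmb8 was not (0.49, edgeR adjusted p = 0.0797), and the median log2 fold change of the 41 was 0.02.

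**Figure D3:**
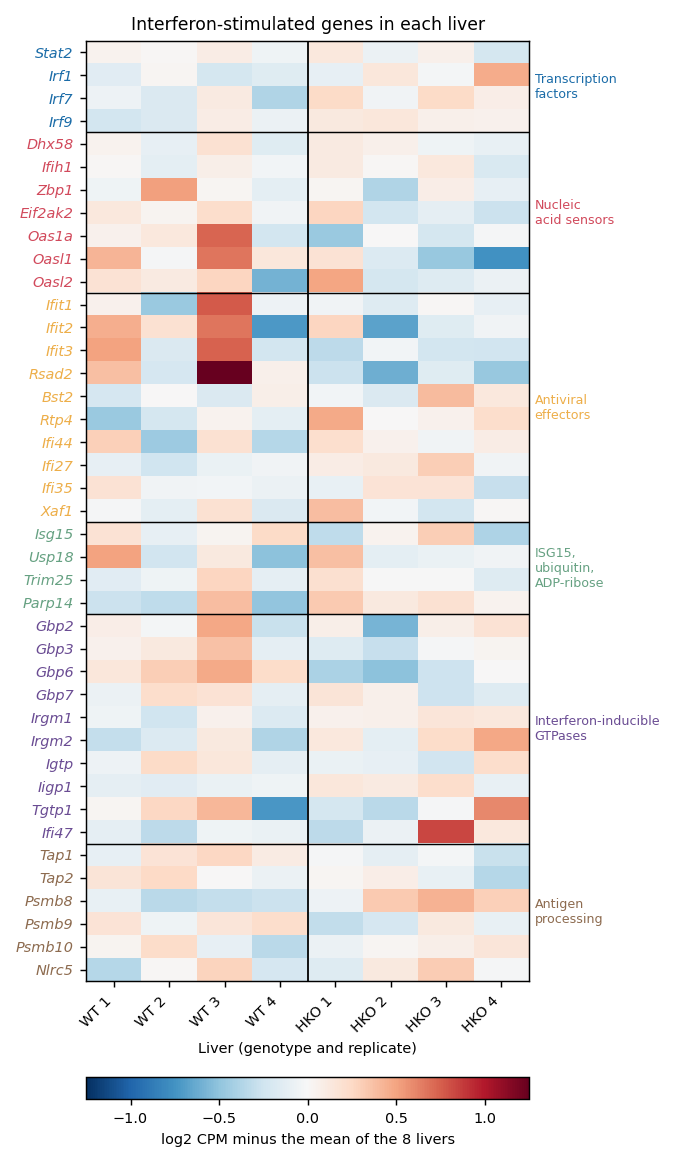
The log2 CPM of the 41 interferon-stimulated genes in each of the 8 livers, minus that gene's mean over the livers (red above, blue below), grouped by role, with a line between WT and HKO livers. WT replicate 3 is red in most rows, strongest in Rsad2 and the Ifit genes, and no block of rows splits by genotype.

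**Figure D4:**
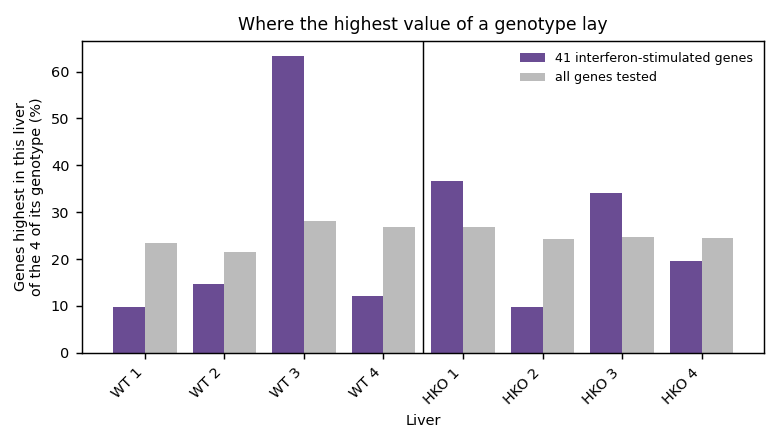
The share of genes (y axis, percent) for which each liver (x axis) had the highest CPM of the 4 livers of its genotype, for the 41 interferon-stimulated genes (purple) and all genes tested (grey). WT replicate 3 reaches 63.4% for the interferon-stimulated genes and 28.1% for all genes.

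Markers of other liver cells are given beside these values, since in bulk liver fewer cells of a type and less RNA per cell cannot be told apart. The 6 sinusoidal endothelial markers summed to 192 CPM in WT replicate 3 and to 59.2 to 92.4 CPM in the other WT livers, and to 98.2 to 222 CPM in HKO livers. The 10 macrophage and Kupffer cell markers summed to 109, 270, 269 and 142.8 CPM in the WT and 244, 78.0, 227 and 255 CPM in the HKO livers, with none of the 10 called. WT replicates 3 and 4 were the highest and the lowest of the WT livers both in endothelial markers and in the median of the interferon-stimulated genes. Other marker sets had another order. In macrophage and Kupffer cell markers WT replicate 2 was highest and replicate 1 lowest, and in stellate cell markers WT replicate 1 was highest. In T and NK cell and in B cell markers WT replicate 3 was highest and replicate 1 lowest. Of the HKO livers, replicate 1 was the highest in both, with endothelial markers at 222 CPM and a median of 0.03. HKO replicates 2 and 3 had medians of -0.01 and 0.00 with 98.2 and 104 CPM. HKO replicate 4 had the lowest median of the HKO livers, with endothelial markers at 181 CPM.

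The 10 T and NK cell markers, of which 1 could be tested and 5 were at 0 in some liver, summed to 1.57 to 3.48 CPM in WT and 4.001 to 5.67 CPM in HKO livers, without overlap. That separation rested on Cd4, the marker tested and not called, and without it the other 9 summed to 1.32 to 2.88 CPM in WT and 1.58 to 3.24 CPM in HKO livers. The 9 monocyte and dendritic cell markers summed to 11.7 to 14.9 and 9.02 to 14.1 CPM, with Ccr2 called lower. The 4 B cell markers summed to 0.909 to 1.94 and 1.01 to 2.89 CPM, and the 4 neutrophil markers in the table to 0.413 to 2.86 and 1.41 to 7.26 CPM. The 6 stellate cell markers summed to 336 to 466 and 279 to 395 CPM, with Col1a1 and Col1a2 called lower. Of the 8 hepatocyte markers, Serpina1a, Cps1, Ass1 and Hnf4a were called higher in HKO livers. The part of these differences in the values of the interferon-stimulated genes was not tested.

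The rest of the interferon pathway was described from a list of 87 other genes in the table, of which 78 could be tested and 5 were called, 3 higher and 2 lower (6.41%, against the 5.03% of all genes). Of the interferons themselves, Ifnb1, Ifnk, Ifnz and Ifng were at or under 0.14 CPM in every liver and none could be tested, so a difference in ligand transcripts was not detectable at this depth. Among the receptors, Ifngr2, the signalling chain of the interferon gamma receptor, was measured at 38.7, 36.9, 36.3 and 31.2 CPM in WT and at 26.7, 24.7, 28.8 and 23.6 CPM in HKO livers. All HKO livers lay below all WT livers, and Ifngr2 fell by 0.46 ± 0.10 SE on the log2 scale (edgeR adjusted p = 0.0211). The call was lost in 4 of the 8 fits without a liver, those without WT replicate 1 or 2 or HKO replicate 2 or 4, where the adjusted p was 0.0538 to 0.0810. Its partner Ifngr1 (0.12, edgeR adjusted p = 0.562) and Ifnar1 of the type I receptor (0.15, edgeR adjusted p = 0.356) were not called.

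Of the 6 pathway transcription factors tested, 2 were called higher, where 1.66% of all genes were. The list is short and was chosen with earlier results of these data known, so the count is not read as an excess. Stat3, the factor of interleukin-6 signalling, was measured at 53.7, 63.0, 65.0 and 54.9 CPM in WT and at 85.8, 96.5, 81.5 and 88.7 CPM in HKO livers. The genotypes stood well apart, and Stat3 rose by 0.57 ± 0.09 SE (edgeR adjusted p = 0.0050, also called in all 8 fits without a liver). Irf5, a factor of Toll-like receptor signalling, was measured at 3.31, 3.91, 5.47 and 4.53 CPM in WT and at 8.23, 6.95, 7.83 and 12.2 CPM in HKO livers.

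All HKO livers were above all WT livers in Irf5, with HKO replicate 4 highest (1.02 ± 0.21 SE, edgeR adjusted p = 0.0193, called in 6 of 8 fits without a liver). Estimated counts were fractional in 7 of the 8 livers for Irf5 and in 4 for Stat3. Irf2, an antagonist of Irf1, was not called (0.30, edgeR adjusted p = 0.102). Socs1, a brake on Janus kinases, was too low to test.

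Among 45 other interferon-induced genes tested, 1 was called higher and 1 lower (4.44%, against 5.03% of all genes), and the median log2 fold change was 0.00. Ifitm3, which blocks virus entry at endosomes, was measured at 211, 209, 227 and 238 CPM in WT and at 270, 309, 316 and 306 CPM in HKO livers. Its genotypes did not overlap (0.44 ± 0.08 SE, edgeR adjusted p = 0.0114, called in 7 of 8 fits without a liver). Cxcl10, a chemokine that draws activated T cells, was measured at 5.04, 6.77, 7.06 and 3.94 CPM in WT and at 2.29, 1.78, 2.25 and 4.09 CPM in HKO livers. HKO replicate 4 overlapped WT replicate 4, and Cxcl10 fell by 1.15 ± 0.27 SE on the log2 scale (edgeR adjusted p = 0.0356, called in 2 of 8 fits without a liver).

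**Figure D5:**
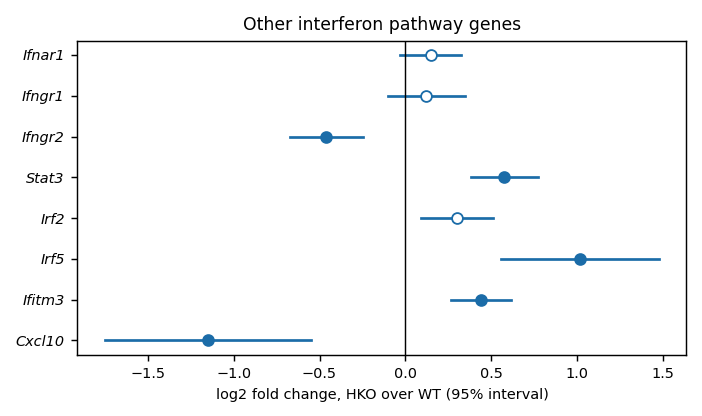
The log2 fold change, HKO over WT (x axis), of 8 interferon pathway genes outside the 41, with 95% intervals from edgeR; filled points mark an adjusted p under 0.05. Stat3, Irf5 and Ifitm3 lie above 0, Ifngr2 and Cxcl10 below it, and the intervals of Ifnar1 and Ifngr1 include 0.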

How the data were processed

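Livers of 4 WT and 4 HKO mice were compared. The authors deposited estimated counts per gene, made with STAR and Partek's expectation-maximization quantification before normalization; versions were not given in the sources used here. The labels name both rRNA depletion and a small RNA kit, so the library type is uncertain, and strand use in counting was not given.

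Estimated counts were rounded and tested with edgeR 4.0.16 in R 4.3.3 (TMM scaling, filter at a minimum count of 10, robust dispersion, quasi-likelihood test), with Benjamini-Hochberg adjustment over 12395 genes and a threshold of 0.05. Which test gave the paper's gene calls was not given in the sources used here. Standard errors are of the log2 fold change, and 95% intervals are per gene. As alternatives, limma-voom (limma 3.58.1), DESeq2 1.42.0, other scalings and filters, a replicate block and each liver left out in turn were run. A further fit was added after seeing the data. In it, a member was summed with any quantified gene that held at least 20% of its 45-base words. The models were tested on simulated data with 200 genes changed. There, 5.11% of edgeR, 11.3% of DESeq2 and 3.61% of limma-voom calls were of unchanged genes.

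The 41 members and all lists were chosen with earlier results of these data known. Values in every liver are given for called members, the 4 transcription factors, Isg15, Ifit1, Psmb8 and Irgm1, and the 5 uncalled members with the largest fold changes; Iigp1, Parp14 and other genes were singled out after their values were seen. Of the pathway symbols, Ifna1, Ifna2, Ifna4, Ifna5, Ifnl2 and Ifnl3 were not analysed here, and 1 pathway gene is not reported here. Exon lengths and 3′UTRs came from GENCODE (GRCm38), and promoters and miRNA from RefSeq (GRCm38.p6). Of the listed coordinates, 39 of 41 members shared a start or end with RefSeq.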

Additional observations from a re-analysis of the deposited data

Results flagged for a closer look

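Of 102 groups of 4 livers examined for a single liver far from the rest, 5 had one, and chance gives about 5. Oasl2 stood at 8.10 CPM in HKO replicate 1 and 4.94 to 5.45 CPM in the other HKO livers. Usp18 stood at 13.0 CPM in HKO replicate 1 and 9.26 to 9.79 CPM in the others. Gbp2 was low in HKO replicate 2, at 5.17 CPM against 8.16 to 8.77 CPM. Ifi35 was at 11.99 CPM in WT replicate 1, where WT replicates 2 to 4 held 10.1 to 10.3 CPM. Socs1 was at 0.511 CPM in HKO replicate 4 and at most 0.0675 CPM in the other HKO livers, a level near the floor of 3 counts.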

How the results depend on the processing

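The numbers of members called lower and higher were 1 and 1. DESeq2 called 2 lower, the second being Rsad2, and 1014 genes in all against 624. With genes of shared sequence summed 0 members were lower, and with total count scaling or the replicate block 0 were higher. With a fold change above 1.5 also required, 0 members were called in either direction, and 2 pathway genes and 367 genes in all were called. Leaving out each liver gave 0 to 1 lower, 0 to 1 higher, 1 to 5 pathway genes, 212 to 598 genes in all (fewest without WT replicate 2, 272 without WT replicate 1, 364 without HKO replicate 4) and 5 to 9 members without overlap, against 14.4% to 19.3% of all genes tested. Without a liver, Stat2 ranged from -0.10 to 0.02 (0.0185 without HKO replicate 4) and Ifit1 from -0.37 to 0.07 (0.0699 without WT replicate 3). The causes were not tested.

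Total count scaling moved the median log2 fold change of all genes from 0.01 to -0.08 and that of the members to -0.09, and 16.1% of its 740 calls were higher against 33.01%; the Psmb8 estimate was 0.42 (edgeR adjusted p = 0.0740). Samples with the same replicate number did not deviate together (correlations -0.15 to 0.01), so the numbers are not taken as pairs; with the replicate block 456 genes were called, Gbp6 among them, and Psmb8 (0.50, edgeR adjusted p = 0.111) and Cxcl10 were not. Of the remaining results for named genes, 216 kept direction and side of the threshold outside the fits that left out a liver. At this depth the ligands and Socs1 could not be tested.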
